A study of Arabidopsis thaliana with 6 samples.

Results

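Auxin is the plant hormone that steers cell expansion, organ outgrowth and the release of side shoots. In its nuclear pathway, Aux/IAA proteins hold back the auxin response factors (ARF) until auxin joins an Aux/IAA protein to its receptor, an F-box protein, and the Aux/IAA protein is degraded. The freed ARF proteins then switch on early genes, among them Aux/IAA, GH3 and SAUR genes. GH3 enzymes join auxin to amino acids and so lower the free hormone, while PIN and LAX proteins carry auxin out of and into cells.

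The genes described here are those of the IAA, ARF, SAUR, GH3, PIN and LAX families that the ATH1 array of Arabidopsis thaliana reads by name in shoots of Brassica oleracea. They were picked by gene symbol, and the families themselves were chosen with earlier results of these data known. RefSeq gives such a symbol to 77 Arabidopsis genes, and 11 of these have a probe set in the platform's gene table. Values on all 6 arrays exist for 9 probe sets, out of 19578 in all once the control probe sets were left out. These 9 comprised 5 Aux/IAA genes (IAA18, IAA20, IAA30, IAA33 and IAA34) and 4 GH3 genes (GH3.1, GH3.3, GH3.9 and GH3.17), each from a single probe set. A further 2, IAA29 and IAA31, have values only on the replicate 1 arrays. Of the 22 ARF, 16 SAUR, 7 PIN and 3 LAX symbols none has a probe set in that table. The label of auxin response and transport thus holds here only for Aux/IAA and GH3 genes, and no transporter could be read by name. The proteins of IAA20, IAA30, IAA33 and IAA34 lack the stretch that binds the auxin receptor, so the account of degradation above does not cover them. Whether the genes read here respond to auxin in these shoots was not tested. The gene table covers 14016 of the 22810 probe sets, and the genes it does not list were not analysed here.

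The study compared shoots of phosphate-starved (P-starved) plants with shoots of nutrient-replete (replete) plants, in 3 arrays each. All plants were of the A12dH line of Brassica oleracea var. alboglabra, raised on compost at 22 °C under 16 h days and given deionised water, per the labels, whose organism field nevertheless names Arabidopsis, the species of the array. How phosphate was withheld, for how long, the age of the plants and any pooling of plants are likewise not given in the labels used here. Nothing in the labels ties the arrays of a group to separate plants, and the p-values therefore cover only the spread between these arrays, which may be technical.

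The arrays form 2 processing sets: both replicate 1 arrays list 22810 probe sets and the replicate 2 and 3 arrays 19642 of them. Log2 levels correlated across probe sets with r of 0.903 to 0.927 within a processing set and 0.608 to 0.633 between them, and each set holds both groups. Of 14 shoot markers 3 had a probe set in the gene table with values on all arrays (LHCB4.1, PRK and SBPASE), with signals from 588 to 5089. Their summed signal ran from 2579 to 8302 on the P-starved arrays and from 2599 to 10760 on the replete arrays. In each group all 3 were highest on the replicate 1 array, so these ranges also span the processing sets. Of 10 root markers 3 had a probe set in the gene table with values on all arrays (PYK10, EXPA7 and EXPA18). EXPA7 lay under a signal of 16 on 4 arrays and EXPA18 on 3, while PYK10 ran from 63.7 to 133.7. The summed signal of these root markers ran from 90.8 to 244 on the P-starved arrays and from 121 to 126 on the replete arrays. The highest sum was that of P-starved replicate 1, where EXPA18 alone had 135.8. The part of these markers in the results was not tested.

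None of the 9 auxin probe sets differed between P-starved and replete shoots past the test's threshold. How well these Arabidopsis probes match the Brassica transcripts was not tested. A low signal or an unchanged one therefore need not be that of the Brassica gene. Aux/IAA differences lay within 0.15 of 0 on the log2 scale for 4 of 5 genes, and IAA34 was measured 0.58 higher in P-starved shoots. GH3 differences ran from -0.26 to 0.22. In whole shoots fewer cells that express a gene and less of its RNA per cell cannot be told apart. The deposited MAS5 signal, a linear intensity, was taken as log2(signal + 16) and fitted with limma over all 19578 probe sets, with the processing set as a term, and p-values were adjusted by the Benjamini-Hochberg method at 0.05. On this scale a ratio of signals is understated, most in dim probe sets, those with a signal near or under 16. In this fit 0 of 9 members passed, and over all probe sets 0% did. At an unadjusted p under 0.05 limma again gave 0 of 9 members, where 5.91% of all probe sets lay under it. The 3 P-starved and 3 replete arrays overlapped in all 9 members, and did not overlap in 4.19% of all probe sets. All differences below are P-starved minus replete on this log2 scale with the standard error (SE) of that fit, and signals of different probe sets are not compared with each other.

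**Figure D1:**
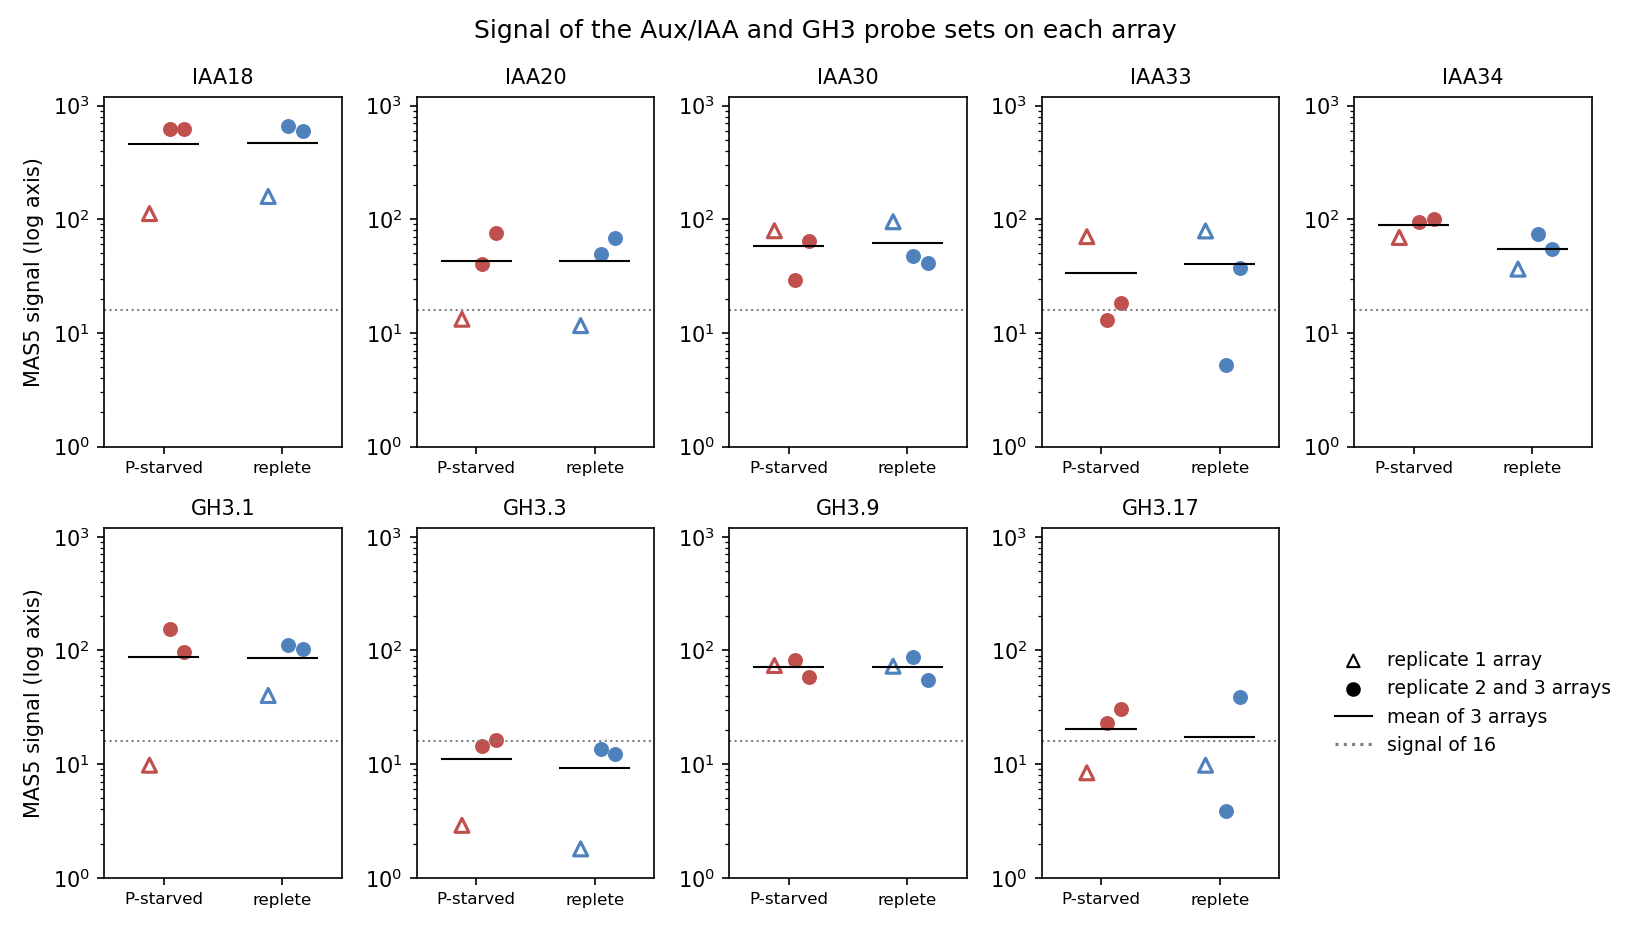
MAS5 signal on a log axis for the 5 Aux/IAA (top) and 4 GH3 (bottom) probe sets, with P-starved arrays left and replete arrays right in each panel, triangles for the replicate 1 arrays, circles for the replicate 2 and 3 arrays, a black line for the mean of 3 arrays and a dotted line at a signal of 16. In every panel the groups overlap over the 6 arrays, and for IAA18, IAA20, GH3.1 and GH3.3 the triangles of both groups lie below all circles.

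IAA34 (AT1G15050) had the smallest p of the 9. It encodes an Aux/IAA protein without the degron that binds the auxin receptor, and in Arabidopsis it is known for growth control in the apical hook. Its signal was 69.1, 94.6 and 101 on P-starved replicates 1, 2 and 3, against 36.4, 74.0 and 54.6 on the replete ones. Within each processing set every P-starved array was above every replete array, but over all 6 arrays the groups overlapped, since P-starved replicate 1 lay under replete replicate 2. Mean signals were 88.3 ± 16.9 in P-starved and 55.0 ± 18.8 in replete shoots (SD, n = 3 each). The log2 difference was 0.58 ± 0.23 (SE), a 1.49-fold value of signal + 16 with a 95% interval of 0.999 to 2.22-fold. For this difference limma gave an unadjusted p of 0.0502 and an adjusted p of 0.788. The difference was 0.70 between the replicate 1 arrays and 0.51 ± 0.30 on the replicate 2 and 3 arrays. With an offset of 4 in place of 16 it was 0.68, and with an offset of 64 it was 0.36. Leaving out each array in turn kept it between 0.49 and 0.69. Among all probe sets 86.2% had a smaller absolute difference.

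IAA18 (AT1G51950) encodes a canonical Aux/IAA repressor that acts in embryo patterning in Arabidopsis. Its signal was 112, 626 and 627 on P-starved replicates 1 to 3, against 159, 656 and 592 on the replete ones. The arrays split by processing set and not by phosphate supply: both replicate 1 arrays were low. The log2 difference was -0.14 ± 0.15, with a 95% interval of -0.53 to 0.24, and limma's adjusted p was 0.829. That difference came from the replicate 1 arrays, at -0.45, while the replicate 2 and 3 arrays gave 0.01 ± 0.13. In P-starved shoots replicates 2 and 3 differed by less than 0.01 on the log2 scale, and in replete shoots by 0.14. The interval of IAA18 corresponds to 0.693 to 1.18-fold.

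IAA20 (AT2G46990) and IAA30 (AT3G62100) encode Aux/IAA proteins that also lack the degron and, in Arabidopsis, act in vascular tissue. IAA20 was measured at 13.2, 40 and 75.1 in P-starved shoots, against 11.6, 49.1 and 68.2 in replete shoots, so both replicate 1 arrays lay under a signal of 16. Its log2 difference was -0.01 ± 0.30, and limma's adjusted p was 0.998. IAA30 had signals of 79.2, 29.5 and 64.9 in P-starved shoots, against 95.1, 47.6 and 41.2 in replete shoots. In IAA30 the gap between P-starved replicates 2 and 3, 0.83 on the log2 scale, was wider than its group difference of -0.07 ± 0.31. The 95% interval of the log2 difference ran from -0.76 to 0.75 for IAA20 and from -0.84 to 0.70 for IAA30 (limma, adjusted p 0.962 for IAA30).

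IAA33 (AT5G57420), a further Aux/IAA gene whose protein lacks the degron and acts in the Arabidopsis root tip, was under a signal of 16 on 2 of the 4 replicate 2 and 3 arrays. Its signal was 70.3, 13.1 and 18.4 on the P-starved arrays, against 78.9, 5.20 and 37.5 on the replete arrays. Replete replicates 2 and 3 stood 1.34 apart on the log2 scale, and both P-starved arrays of that processing set lay between them. The log2 difference was -0.11 ± 0.40, with a 95% interval of -1.10 to 0.89 (limma, adjusted p 0.953). Without replete replicate 3 it was 0.27.

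As a family, 1 of 5 Aux/IAA genes was measured higher and 4 lower in P-starved shoots, and the log2 differences had a median of -0.07 and a range of -0.14 to 0.58. Over all 19578 probe sets 52.6% were higher, and the median was 0.02. Between the replicate 1 arrays 2 of 5 were higher (median -0.14), beside 51.6% of all probe sets. Between the replicate 2 and 3 arrays 3 of 5 were (median 0.01), beside 53.9%. The 2 Aux/IAA genes with values only on the replicate 1 arrays were higher on the P-starved array, with no replicate check. IAA31 (AT3G17600), a close relative of IAA20, had a signal of 85.3 on the P-starved array and 53.2 on the replete array. IAA29 (AT4G32280), a gene known from shade and warmth responses of Arabidopsis shoots, had 34.1 and 26.5.

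GH3.1 (AT2G14960), a member of the auxin-conjugating GH3 group, had signals of 9.80, 154 and 97.3 on P-starved replicates 1 to 3, against 40.2, 112 and 104 on the replete ones. On the replicate 1 arrays it was lower in the P-starved one, while on the other 4 arrays the groups overlapped. Its log2 difference was -1.12 between the replicate 1 arrays, 0.17 ± 0.30 between the replicate 2 and 3 arrays, and -0.26 ± 0.36 over all 6 (limma, adjusted p 0.865). A test of the difference between the 2 processing sets, the group by set interaction in limma, gave 1.29 ± 0.54 with an unadjusted p of 0.0787 and an adjusted p of 0.575. The negative value of GH3.1 over all arrays thus rests on P-starved replicate 1 and replete replicate 1. Without either of them the fit only returns the value of the replicate 2 and 3 arrays, 0.17.

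GH3.3 (AT2G23170), which conjugates auxin to aspartate and, in Arabidopsis, acts in adventitious rooting, was dim throughout. Its signal was 2.90, 14.4 and 16.3 in P-starved shoots, against 1.80, 13.7 and 12.2 in replete shoots, and only P-starved replicate 3 exceeded 16. Within each processing set the P-starved arrays were above the replete ones, and over all 6 arrays the groups overlapped. The log2 difference was 0.11 ± 0.10 (limma, adjusted p 0.810), with an interval of -0.14 to 0.35 on a scale where the added 16 compresses differences between signals this low.

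GH3.9 (AT2G47750), a GH3 gene linked to primary root growth in Arabidopsis, gave the smallest difference of the 9 genes, 0.00 to 2 decimals with an SE of 0.27. It had signals of 73.8, 82.2 and 58.1 on the P-starved arrays, against 72.7, 87.0 and 54.8 on the replete arrays. The means were 71.4 ± 12.2 in P-starved and 71.5 ± 16.1 in replete shoots (SD, n = 3 each), and the 95% interval of the log2 difference was -0.66 to 0.67. Arrays with the same replicate number had close values in both groups: replicate 2 was the highest and replicate 3 the lowest in each. Over all probe sets, deviations of same-numbered arrays correlated with r of only 0.016 within the replicate 2 and 3 arrays.

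GH3.17 (AT1G28130), whose enzyme joins auxin to glutamate, was measured at 8.40, 23 and 30.4 in P-starved shoots, against 9.80, 3.9 and 38.6 in replete shoots. The replete arrays held both the highest and the lowest value of the 6. The log2 difference of 0.22 ± 0.40 (limma, adjusted p 0.898) rested on replete replicate 2, at 3.9, and was -0.24 without it.

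The GH3 genes were measured higher in 3 of 4 cases, beside 52.6% of all probe sets, and 1 of the 3 was GH3.9 at 0.0049. Their log2 differences ranged from -0.26 to 0.22, and the median was 0.06 beside a median of 0.02 over all probe sets. Between the replicate 1 arrays 2 of 4 were higher (median -0.03), beside 51.6% of all probe sets. Between the replicate 2 and 3 arrays 3 of 4 were (median 0.14), beside 53.9%. WES1 (AT4G27260), the gene also called GH3.5, which conjugates both auxin and salicylate, belongs to the family but carries another symbol. It had signals of 109, 139.5 and 94.4 in P-starved shoots, against 142, 57.9 and 40.3 in replete shoots. Between the replicate 1 arrays its log2 difference was -0.33, and between the replicate 2 and 3 arrays 1.02 ± 0.35, where both P-starved arrays were above both replete ones. For the replicate 2 and 3 arrays limma gave an unadjusted p of 0.0427 and an adjusted p of 0.661, beside 7.30% of all probe sets with an unadjusted p under 0.05. Over all 6 arrays the difference was 0.57 ± 0.36, and the interaction between group and processing set had an adjusted p of 0.549 in limma.

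**Figure D2:**
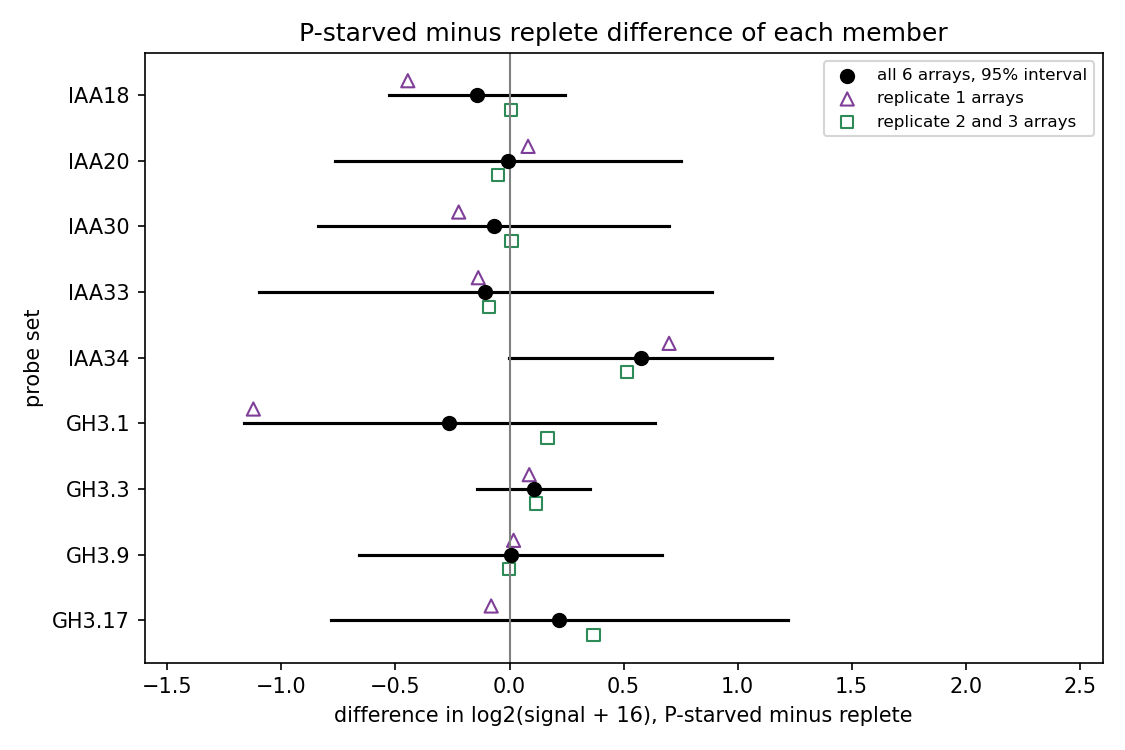
Difference in log2(signal + 16), P-starved minus replete, for each of the 9 probe sets, with black dots and lines for the fit on all 6 arrays and its 95% interval, triangles for the replicate 1 arrays and squares for the replicate 2 and 3 arrays. All 9 intervals include 0, the interval of IAA34 starting at 0.999-fold, and the triangle of GH3.1 at -1.12 stands farthest from its square.

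Within each processing set, groups that did not overlap and differed the same way in both sets were found for 2 of 9 members, IAA34 and GH3.3, both higher in P-starved shoots. Over all probe sets 11.8% were higher in both sets in this manner and 8.59% lower. The replicate 1 set holds a single array per group, so only the direction of the difference can vary there. The sign of the difference was the same in both processing sets for 3 of 9 members, the third being IAA33, where 51.9% of all probe sets had the same sign. The interaction between group and processing set passed an adjusted p under 0.05 in limma for 0 of 9 members and 0% of all probe sets, and an unadjusted p under 0.05 for 0 of 9 members, beside 9.93% of all.

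On the replicate 2 and 3 arrays, where each group has 2 arrays, the group difference was larger than the gap between replicates 2 and 3 of either group in 2 of 9 members, again IAA34 and GH3.3. Over all probe sets this held for 24.7%. The median gap between those replicates among the 9 members was 0.25 in P-starved and 0.35 in replete shoots on the log2 scale, beside 0.27 in each group over all probe sets. The median absolute group difference was 0.09 among the members and 0.25 over all probe sets. A fit on these 4 arrays alone gave limma calls for 0 of 9 members at an adjusted p under 0.05, and for 0% of all probe sets. At an unadjusted p under 0.05 this limma fit gave 0 of 9 members, where 7.3% of all probe sets lay under it.

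**Figure D3:**
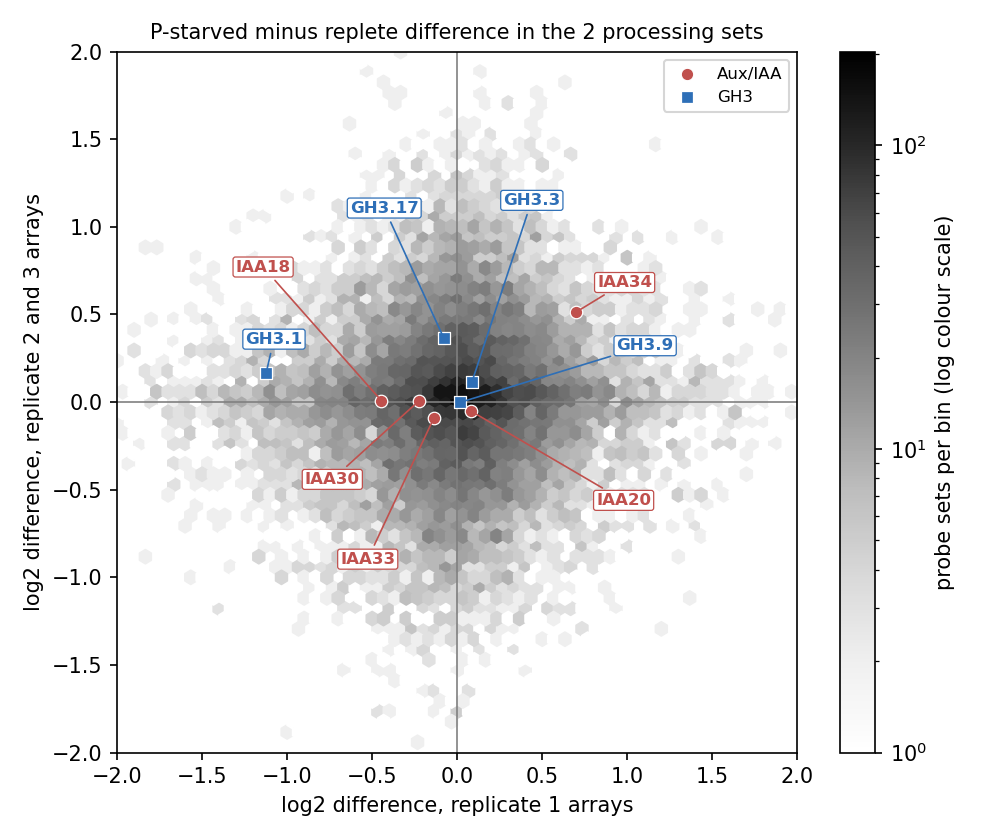
Log2 difference, P-starved minus replete, on the replicate 1 arrays (horizontal) against the replicate 2 and 3 arrays (vertical), with all tested probe sets as grey bins, Aux/IAA genes as red circles and GH3 genes as blue squares. IAA34 and GH3.3 lie in the upper right part, IAA33 in the lower left, GH3.1 stands apart at the left, and 152 probe sets lie outside the axes, which end at 2 in each direction.

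The processing set, unlike the phosphate treatment, passed the threshold in part of these genes. In the same limma fit the set term, replicate 2 and 3 arrays minus replicate 1 arrays, had an adjusted p under 0.05 for 5 of 9 members, where 43.4% of all probe sets had. IAA18 was 2.1 ± 0.16 higher on the replicate 2 and 3 arrays (adjusted p 6.82e-04), GH3.1 1.78 ± 0.38, IAA20 1.36 ± 0.32 and GH3.3 0.72 ± 0.11. Of all probe sets 14.6% were higher there past the threshold. IAA33 was lower there, at -1.47 ± 0.42 (adjusted p 0.0374), and 28.8% of all probe sets were lower past the threshold. The median set term of all probe sets was -0.25, so these values stand on a scale that is itself shifted. After quantile normalization, which moved that median to 0.02, limma gave IAA18 2.11, GH3.1 2.14, IAA20 1.75 and GH3.3 1.03, all still past the threshold. IAA34, at 0.94, then also passed it, and IAA33, at -1.02, no longer did (adjusted p 0.103). Whether the sets differ in plants, in hybridisation or in how probe sets were summarised cannot be told apart here.

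The rest of the auxin pathway was barely readable by name. Of 44 listed genes of perception, co-repression, synthesis, breakdown and other transport, 3 had a probe set in the gene table with values on all arrays. Of these, 2 were higher and 1 lower in P-starved shoots, and 0 passed the threshold. For the 6 receptor genes, the 10 genes of co-repressors and receptor complex machinery, and the 6 genes of other transport, the gene table lists no probe set. Whether unnamed probe sets read them was not looked up. YUC6 (AT5G25620), a flavin monooxygenase of auxin synthesis, had signals of 19.1, 187 and 147 in P-starved shoots, against 20.2, 204 and 175 in replete shoots. In YUC6 as in IAA18 the low arrays were both replicate 1 arrays, and the log2 difference was -0.13 ± 0.21 (limma, adjusted p 0.886). YUC11 (AT1G21430), of the same enzyme family, stayed under 16 on all 6 arrays and had 0.17 ± 0.10. DAO1 (AT1G14130), which oxidises auxin, had 90.1, 12.2 and 4.60 in P-starved shoots, against 89.5, 8.90 and 2.30 in replete shoots, and a difference of 0.12 ± 0.24. Another 2 synthesis genes have values only on the replicate 1 arrays, and of these YUC2 (AT4G13260) had a signal of 229.5 on the P-starved array, against 389.7 on the replete array.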

How the data were processed

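Total RNA was assayed on ATH1 arrays. The authors deposited MAS5 signal, a linear probe set intensity, per the submitters' processing notes. The MAS5 version, any probe masking and the genome build are not given here. The 2% trimmed mean of every array was 100, so values were used as deposited, as log2(signal + 16), without detection calls. The number of arrays limits the precision. limma 3.58.1 in R 4.3.3 (lmFit, eBayes with trend, two-sided) was fitted on 19578 probe sets with group and processing set as terms. The fit was tried on simulated data only with changes of 2 or 3 log2 units. These are larger than any member difference, so smaller changes were not tested there. Symbols came from the platform table and RefSeq (TAIR10.1), in which 13436 of 13513 probe sets with 1 gene matched. Probes for Arabidopsis do not resolve Brassica gene copies. Members, lists and the set term were chosen with earlier results of these data known. All members were described; of other lists, up to 2 genes with the smallest p. Same-numbered arrays of the 2 groups deviated together from their group means (r 0.839, 0.551 and 0.530), but within the replicate 2 and 3 arrays r was 0.016. Offsets, scalings, a filter, other terms and leaving out each array were tried.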

Additional observations from a re-analysis of the deposited data

Results flagged for a closer look

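YUC4 (AT5G11320), a flavin monooxygenase gene of auxin synthesis, is listed on the replicate 1 arrays alone and entered no fit. Its signal was 109 on the P-starved array, against 27.8 on the replete array, a ratio of 3.91 from 1 array against 1 with no replicate check. It was singled out because a signal of 100 or more on the P-starved array was at least 2 times that on the replete array. This rule finds increases only, and the share of all probe sets that meet it is not given here. YUC2, also a synthesis gene listed on these arrays alone, went the other way, at 229.5 against 389.7.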

How the results depend on the processing

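No member passed an adjusted p under 0.05 in limma under any of the 14 alternatives tried, the smallest adjusted p of a member being 0.682 (among the brighter 50% of the probe sets). At an unadjusted p under 0.05 the count of higher members moved to 1, IAA34, with an offset of 4 (5.9% of all probe sets lay under it) and to 1, again IAA34, without the trend (6.23%). It stayed at 0 under the other 12. With the replicate number as a block, the smallest adjusted p of a member was 0.801 and no call changed. IAA34 and GH3.3 kept their sign throughout. The sign of GH3.9 turned with quantile normalization (-0.014) and that of IAA20 with an offset of 4 (0.00044). An offset of 4 moved GH3.17 to 0.44, GH3.3 to 0.21, GH3.1 to -0.44 and IAA33 to -0.05. An offset of 64 moved IAA34 to 0.36, GH3.1 to -0.08, GH3.17 to 0.07, GH3.3 to 0.04 and IAA30 to -0.04. Leaving out each array in turn, the sign turned in IAA18 (-0.23 to 0.0078) and GH3.1 (-0.55 to 0.17) without either replicate 1 array, and in IAA33 (-0.49 to 0.27) without replete replicate 3. It turned in GH3.17 (-0.24 to 0.59) without replete replicate 2, and in IAA20 (-0.20 to 0.21) without P-starved replicate 2 or replete replicate 3. In IAA30 (-0.33 to 0.15) it turned without either replicate 1 array or P-starved replicate 2, and in GH3.9 (-0.15 to 0.16) without any of these 3 or replete replicate 3. Without either replicate 1 array the fit measures the difference on the replicate 2 and 3 arrays. The cause was not tested. Leaving out each array, the family medians ran from -0.19 to 0.15 for Aux/IAA and from -0.06 to 0.14 for GH3 genes. The filter to the brighter 50% left out IAA20, IAA33, GH3.3 and GH3.17, which turned the GH3 median to -0.13, against 0.06 with all 4 genes. A total of 5 of 9 members had a signal under 16 on at least 1 array.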
